A study of Danio rerio with 6 samples.

Results

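The primitive erythroid genes are the genes that the first red blood cells of the embryo need to make and package haemoglobin. They were chosen by name from the table of detected genes, as *gata1a*, *alas2*, *urod*, the embryonic globin genes *hbae1*, *hbae3*, *hbbe1* and *hbbe3*, and the membrane genes *slc4a1a* and *epb41b*, with or without a numbered suffix. These 9 names gave 10 of the 23150 genes in the table, because *hbbe1* is listed as *hbbe1_1* and *hbbe1_2*, and all 10 passed the filter on low counts. Polyadenylated RNA was sequenced from whole zebrafish embryos, pooled at 18hpf (hours post fertilization) after removal of the chorion and yolk, 3 libraries from wildtype embryos (dusp2+/+;dusp6+/+) and 3 from *dusp2/dusp6* double mutants (dusp2um287/um287;dusp6um286/um286). The wildtype line was Ekkwill, and both mutant alleles are germ line deletions made with CRISPR/Cas9. The study describes the mutant embryos as offspring of parents that were both double homozygous, so the mutant pools differed from the wildtype pools in parents as well as in genotype. The pools may also have differed in genetic background, and parents, background and genotype cannot be told apart here. Because part of such clutches stalls during the first cell division, the mutant pools hold the embryos that went on to develop. The comparison asked which genes changed when both phosphatases, which are thought to dampen FGF signaling through ERK, were missing. At an earlier stage the study stained phosphorylated ERK and the ERK targets *pea3* and *erm*. It reported no difference between double mutant and wildtype embryos.

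In zebrafish, the first wave of blood formation produces primitive erythroid cells from the intermediate cell mass, a band of mesoderm in the trunk. Gata1 is the transcription factor that drives these cells to become red cells, and it acts on the globin genes, on the heme pathway and on genes of the red cell membrane. Haemoglobin is assembled from alpha-type and beta-type globin chains and heme, and the red cell keeps its shape through proteins that anchor the membrane to a spectrin skeleton. Several members are known from zebrafish mutants with anaemia, among them *gata1a* (*vlad tepes*), *alas2* (*sauternes*), *urod* (*yquem*), *slc4a1a* (*retsina*) and *epb41b* (*merlot*).

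The expected counts of the libraries summed to between 36310355 and 45161306. Levels are given as CPM (counts scaled to a common library size) after TMM scaling, a correction for library composition. Libraries carry the letters of their columns, which are A, B and C for wildtype and A, C and D for the mutants, and values are always given in this order. The targeted genes followed the labels. *dusp6* stood at 212, 222 and 229 CPM in wildtype and at 28.5, 32.4 and 32.4 CPM in the mutants, and *dusp2* at 51, 35 and 71 counts in wildtype and 3, 7 and 7 counts in the mutants. Mutant replicate D stood apart from the other mutant libraries in muscle genes, as described with the marker lists, so values without it are given where they matter.

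Most of the primitive erythroid genes were up-regulated in the *dusp2/dusp6* double mutants, by less than 2-fold. Of the 10 genes, 8 were higher in edgeR's quasi-likelihood test, at a Benjamini-Hochberg adjusted p under 0.05 over 20021 tested genes, and 0 were lower. Of all tested genes, 34.5% passed this threshold in either direction, 17.4% higher and 17.1% lower in the mutants. The members were chosen with earlier results of these data known, so these shares are a description and no test of the set. No member was called together with a fold change over 2, compared with 4.95% of all genes. The median log2 fold change of the members was 0.50, from -0.064 for *hbbe1_2* to 0.99 for *slc4a1a*, and the median over all tested genes was -0.0007. In 7 of the 10 genes all mutant libraries lay above all wildtype libraries, an order that 24.3% of all genes showed. Without mutant replicate D, 8 members were called, with a median of 0.53. Together the 10 genes took 0.0224%, 0.0191% and 0.0229% of the counts of the wildtype libraries and 0.0265%, 0.0313% and 0.0277% of those of the mutant libraries, without overlap. Since the RNA came from whole embryos, a change in the number of erythroid cells and a change in RNA per cell cannot be told apart.

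**Figure D1:**
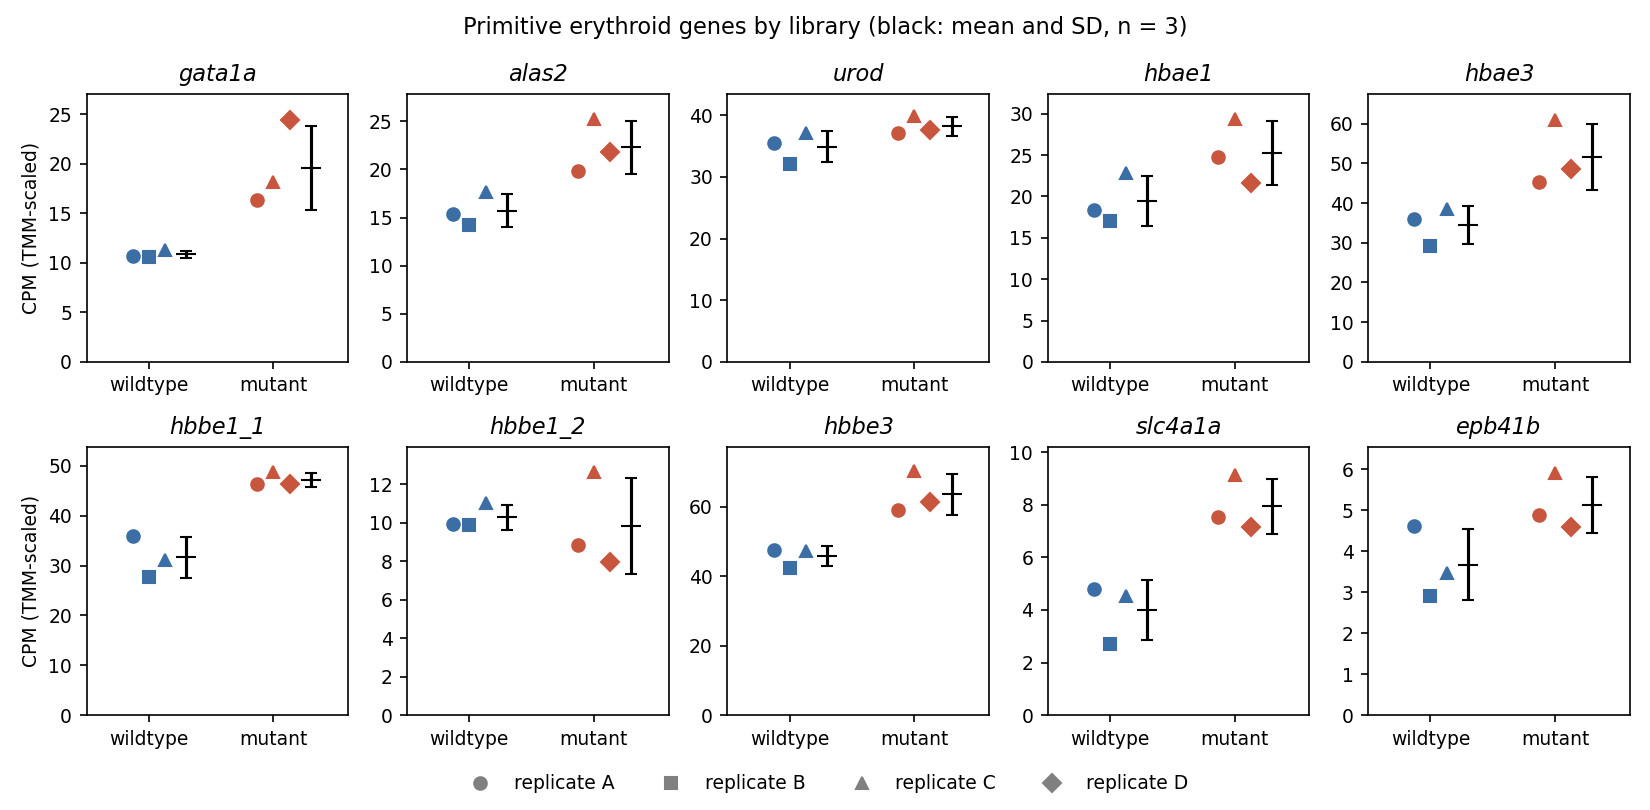
CPM after TMM scaling of the 10 primitive erythroid genes in the 3 wildtype (blue) and 3 mutant (orange) libraries, with the mean and SD of each group in black and each vertical axis starting at 0. The mutant points lie above the wildtype points for *gata1a*, *alas2*, *hbae3*, *hbbe1_1*, *hbbe3* and *slc4a1a*, and barely so for *urod*. For *hbae1* and *epb41b* only the point of mutant replicate D reaches down among the wildtype points. For *hbbe1_2* the mutant points lie on both sides of the wildtype points.

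*gata1a*, which encodes the erythroid transcription factor itself, showed one of the larger changes. Its level was 10.7, 10.6 and 11.3 CPM in wildtype and 16.3, 18.1 and 24.4 CPM in the mutants. The wildtype libraries were close together, every mutant library was well above them, and mutant replicate D was the highest. The means were 10.9 ± 0.394 CPM and 19.6 ± 4.23 CPM (SD, n = 3 each), a 1.80-fold increase (log2 fold change 0.85, SE 0.13, edgeR adjusted p = 0.00050). Of all tested genes, 3.96% had a higher log2 fold change than *gata1a*. Without mutant replicate D the log2 fold change was 0.66 (edgeR adjusted p = 1.34e-05).

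The heme genes among the members are *alas2*, the erythroid form of the first enzyme of heme synthesis, and *urod*, which acts further down the same pathway and is used by all cells. *alas2* stood at 15.3, 14.2 and 17.6 CPM in wildtype and at 19.9, 25.3 and 21.8 CPM in the mutants. The groups did not overlap, and mutant replicate C was the highest library. *alas2* rose 1.42-fold, with a log2 fold change of 0.50 (SE 0.10, edgeR adjusted p = 0.0030). *urod* stood at 35.6, 32.2 and 37.1 CPM in wildtype and at 37.1, 39.9 and 37.6 CPM in the mutants. The highest wildtype library and the lowest mutant library were almost equal. The *urod* means of 34.9 ± 2.52 and 38.2 ± 1.52 CPM (SD, n = 3 each) did not differ at the threshold, and the 95% interval of the log2 fold change ran from -0.0099 to 0.27 (edgeR adjusted p = 0.14).

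Embryonic globin genes are the main products of these cells. The reference annotation (GRCz12tu, used for names and gene order only) places *hbbe3* in a cluster with *hbae4*, *hbbe2* and *hbae5*, and *hbae1*, *hbae3* and *hbbe1* in the other globin cluster. There *hbae1* and *hbbe1* each stand in 3 neighbouring copies, whereas the count table lists 1 row for *hbae1* and 2 for *hbbe1*. The program RSEM divides reads that match more than one transcript, so the split of counts among copies is an estimate. Both *hbbe1* rows had fractional counts in every library, counting a value as whole within 0.005, and *hbae1* was whole in 1 library. Single rows of these genes are therefore less certain than their sums. Fractional counts were not particular to the globin copies, since *gata1a* was also whole in 1 library and *dusp6* in 0.

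Of the alpha-type globins, *hbae3* had 35.9, 29.3 and 38.4 CPM in wildtype and 45.2, 61.0 and 48.7 CPM in the mutants. All mutant libraries were above all wildtype libraries, with mutant replicate C the highest. *hbae3* rose 1.495-fold (log2 fold change 0.58, SE 0.11, edgeR adjusted p = 0.0027). *hbae1* had 18.3, 17.1 and 22.8 CPM in wildtype and 24.8, 29.4 and 21.6 CPM in the mutants. Here the groups overlapped, since mutant replicate D lay below wildtype replicate C. The log2 fold change of *hbae1* was 0.38 (SE 0.12, edgeR adjusted p = 0.032), and without mutant replicate D it was 0.47 (edgeR adjusted p = 0.0021). The call was lost without wildtype replicate A (adjusted p = 0.12), wildtype replicate B (0.13), mutant replicate A (0.052) or mutant replicate C (0.14) in the same edgeR test. Summed, the 2 alpha-type genes had 54.2, 46.3 and 61.2 CPM in wildtype and 70.0, 90.4 and 70.3 CPM in the mutants. The summed groups did not overlap, and the log2 fold change was 0.51 (SE 0.11, edgeR adjusted p = 0.0043).

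Of the beta-type globins, *hbbe3* had 47.6, 42.4 and 47.2 CPM in wildtype and 59.0, 70.1 and 61.3 CPM in the mutants. *hbbe1_1* had 35.96, 27.8 and 31.2 CPM in wildtype and 46.4, 48.8 and 46.3 CPM in the mutants. In both genes every mutant library exceeded every wildtype library. *hbbe3* rose 1.39-fold (log2 fold change 0.47, SE 0.070, edgeR adjusted p = 0.00046) and *hbbe1_1* rose 1.49-fold (log2 fold change 0.58, SE 0.080, edgeR adjusted p = 0.00030). *hbbe1_2* behaved otherwise, with 9.93, 9.90 and 11.03 CPM in wildtype and 8.87, 12.7 and 7.96 CPM in the mutants. Mutant replicate C was the highest of the 6 libraries and the other mutant libraries were the lowest. The log2 fold change of *hbbe1_2* was -0.064 (95% interval -0.38 to 0.26, edgeR adjusted p = 0.77).

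With both *hbbe1* rows added, the gene had 45.9, 37.7 and 42.2 CPM in wildtype and 55.2, 61.5 and 54.2 CPM in the mutants. The sum was free of the split between the rows, its groups did not overlap, and it rose 1.36-fold (log2 fold change 0.44, SE 0.073, edgeR adjusted p = 0.00099). Over all 3 beta-type rows the levels were 93.5, 80.2 and 89.4 CPM in wildtype and 114, 132 and 116 CPM in the mutants. The beta-type sum rose 1.37-fold (log2 fold change 0.46, SE 0.068, edgeR adjusted p = 0.00045). The alpha-type and beta-type sums thus had overlapping 95% intervals, from 0.27 to 0.75 and from 0.31 to 0.61 on the log2 scale.

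**Figure D2:**
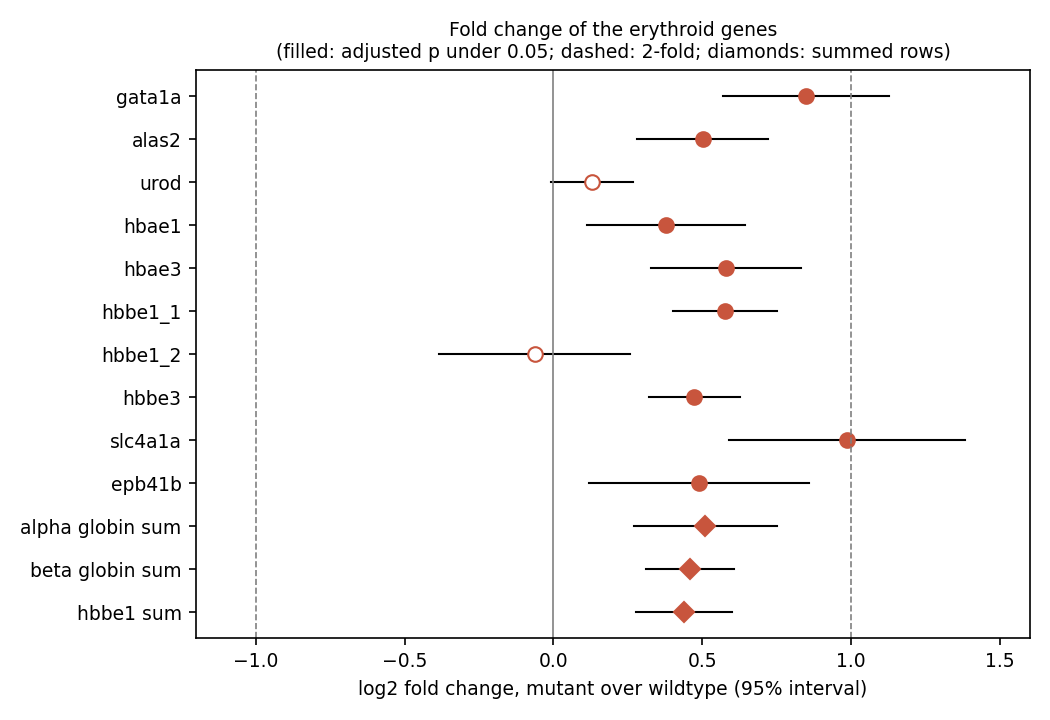
Log2 fold change, mutant over wildtype, of the 10 primitive erythroid genes (circles) and of the summed globin rows (diamonds), with 95% intervals from the edgeR fit. Filled symbols passed an adjusted p of 0.05 and dashed lines mark a 2-fold change. The 8 called genes lie between 0.38 and 0.99, all to the right of 0, while the intervals of *urod* and *hbbe1_2* include 0.

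The membrane genes are *slc4a1a*, encoding band 3, the anion exchanger that exchanges chloride for bicarbonate and anchors the skeleton, and *epb41b*, encoding protein 4.1, which ties spectrin and actin to the membrane. *slc4a1a* had 178, 101 and 208 counts in wildtype and 315, 398 and 268 counts in the mutants. On the CPM scale these were 4.78, 2.70 and 4.53 in wildtype and 7.55, 9.12 and 7.16 in the mutants. Every mutant library was clearly above the wildtype libraries, and wildtype replicate B was far below the other wildtype libraries. *slc4a1a* rose 1.98-fold, the largest change among the members (log2 fold change 0.99, SE 0.18, edgeR adjusted p = 0.0018), and 2.95% of all genes had a higher log2 fold change. Without wildtype replicate B its log2 fold change was 0.77, and without wildtype replicate A, wildtype replicate C, mutant replicate A or mutant replicate D it was 1.12, 1.09, 1.02 or 1.05, past a 2-fold change.

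*epb41b* had 4.62, 2.91 and 3.48 CPM in wildtype and 4.89, 5.91 and 4.59 CPM in the mutants. The groups just overlapped, since wildtype replicate A exceeded mutant replicate D. Its log2 fold change was 0.49 (SE 0.17, edgeR adjusted p = 0.043), and without mutant replicate D it was 0.56 (edgeR adjusted p = 0.017). The call was lost without wildtype replicate B (adjusted p = 0.15), wildtype replicate C (0.13), mutant replicate A (0.059) or mutant replicate C (0.16) in the same edgeR test.

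Within each genotype, the same library was often the extreme one. Wildtype replicate B was the lowest wildtype library for 10 of 10 genes, as it was for 35.1% of all tested genes. Mutant replicate C was the highest mutant library for 9 of 10, as it was for 28.9% of all tested genes, and the exception was *gata1a*, whose highest mutant library was mutant replicate D. The other ends were mixed, with the highest wildtype library being replicate A for 4 genes and replicate C for 6, and the lowest mutant library being replicate A for 5 and replicate D for 5. Averaged over the members, the log2 level relative to the wildtype mean was 0.083, -0.19 and 0.10 in the wildtype libraries and 0.39, 0.66 and 0.43 in the mutant libraries. The wildtype and mutant ranges of this average did not overlap. Mutant replicate D lay above mutant replicate A in this average, and with *gata1a* left out it lay below, at 0.34 compared with 0.37.

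**Figure D3:**
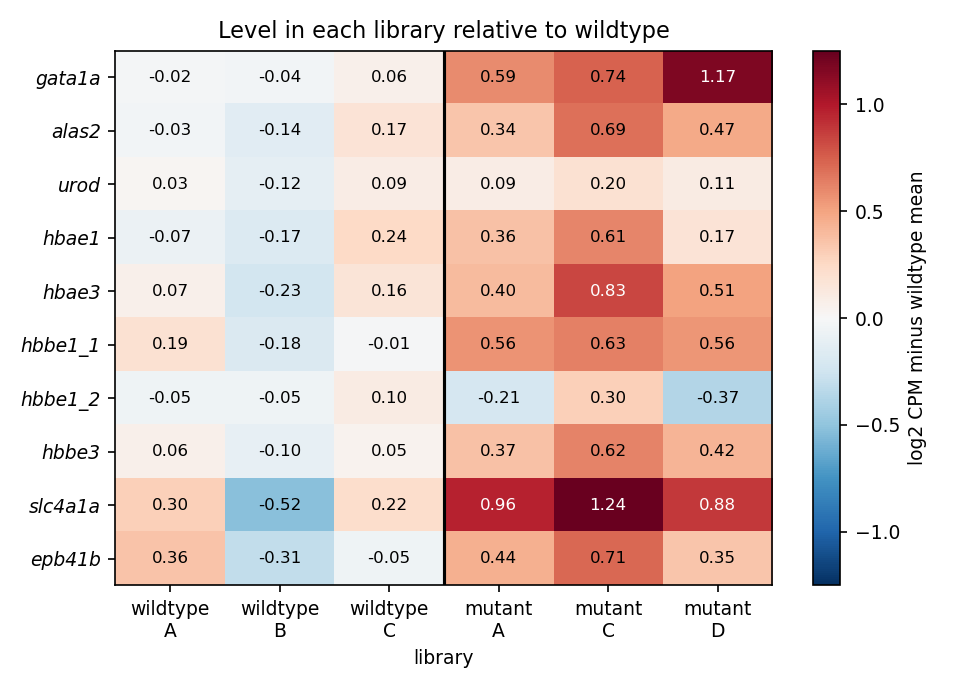
Log2 CPM of each primitive erythroid gene in each library minus its wildtype mean, with the value printed in each cell and red for higher, blue for lower. The column of wildtype replicate B is negative for all 10 genes, and the mutant columns are positive except for *hbbe1_2* in mutant replicates A and D.

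Ratios between members, which do not depend on library scaling, were compared for 5 pairs chosen after the values had been seen. An adjustment over these 5 does not cover that choice, so the p-values of the ratios are descriptions only. With 3 libraries a group the smallest two-sided exact permutation p is 0.1. The *hbbe1_2* row made up 21.7%, 26.2% and 26.1% of the *hbbe1* counts in wildtype and 16.1%, 20.6% and 14.7% in the mutants. The shares did not overlap (exact permutation p = 0.1, adjusted over the 5 ratios 0.25), and they rest on the division of reads between similar copies. The ratio of *slc4a1a* to *epb41b* was 1.03, 0.927 and 1.30 in wildtype and 1.54, 1.54 and 1.56 in the mutants. This ratio was higher in 3 of 3 mutant libraries than in any wildtype library, again at the smallest p the design allows (exact permutation p = 0.1, adjusted 0.25). The beta-type to alpha-type globin ratio was 1.72, 1.73 and 1.46 in wildtype and 1.63, 1.46 and 1.64 in the mutants. It overlapped between the genotypes (exact permutation p = 0.5), as did the ratio of *hbae3* to *hbae1* and that of *gata1a* to *alas2* (exact permutation p = 0.2 each, adjusted 0.25).

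Genes that work with the members were examined as lists of heme synthesis, iron handling, red cell membrane, erythroid regulators and other globins. Of 72 tested genes on these lists, 17 rose, 5 fell and 50 did not pass the threshold, against the 17.4% higher and 17.1% lower in the whole table. Most of these genes are also used by other cells of the embryo.

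Heme synthesis had 4 of 17 tested genes higher and 2 lower, with a median log2 fold change of 0.0084. *fech*, encoding the enzyme that inserts iron into the ring, had 7.22, 5.74 and 6.05 CPM in wildtype and 9.73, 8.96 and 10.95 CPM in the mutants. All its mutant libraries were higher, with a log2 fold change of 0.64 (SE 0.11, edgeR adjusted p = 0.0014). Smaller increases were found for *alas1* (0.31), the form of the first enzyme used outside erythroid cells, and for the pathway enzymes *cpox* (0.32) and *uros* (0.25) on the log2 scale. *slc25a38b*, a mitochondrial glycine carrier that supplies the first step, fell by 0.82 on the log2 scale, and *clpxb*, a subunit of the ClpXP protease of mitochondria, fell by 0.34. *glrx5* (0.0084), *hmbsa* (0.053) and *alad* (-0.040) did not pass the threshold. The *uros* call was lost in the DESeq2 test and without wildtype replicate B, wildtype replicate C, mutant replicate C or mutant replicate D.

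Iron transport and storage had 2 of 14 tested genes higher and 1 lower, with a median of -0.050. *tfr1a*, the transferrin receptor of erythroid cells in zebrafish, had 11.4, 10.3 and 12.0 CPM in wildtype and 12.9, 15.4 and 13.5 CPM in the mutants. Its mutant libraries were all higher, by a log2 fold change of 0.31 (SE 0.091, edgeR adjusted p = 0.021). Its paralogue *tfr1b* fell by 0.43 on the log2 scale, and the iron transporter *slc11a2* rose by 0.28. The ferritin gene *fth1a* (0.037), *ireb2* (-0.0097) and *hfe2* (-0.32) did not pass. Of the less abundant genes, *slc25a37* (-0.30) and *tfa* (0.42), named after their values were seen, did not pass either. *slc25a37* had 4.48, 3.60 and 3.50 CPM in wildtype and 3.33, 3.19 and 2.88 CPM in the mutants (edgeR adjusted p = 0.13). Without wildtype replicate B, and likewise without mutant replicate C, 0 genes of this list were called higher, and without wildtype replicate A or mutant replicate D 1 was. The *tfr1a* call was lost without wildtype replicate A, wildtype replicate B or mutant replicate C, and the *slc11a2* call without any one of these or without mutant replicate D. Across all settings run, 1 or 2 were called lower.

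The list of red cell membrane and skeleton genes other than the members also holds genes of enzymes and of a mitochondrial protein. It had 4 of 17 tested genes higher and 1 lower, with a median of 0.065. Those higher were *sptb* (0.31), encoding beta spectrin, the carbonic anhydrase genes *cahz* (0.30) and *ca2* (0.25), and *tspo* (0.77), encoding a protein of the outer mitochondrial membrane. *tspo* had 14.2, 15.5 and 17.6 CPM in wildtype and 25.1, 26.0 and 30.0 CPM in the mutants, without overlap (edgeR adjusted p = 0.00010). *tmod1*, whose product caps actin filaments in red cells and also in muscle, fell by 0.63 on the log2 scale. *prdx2* (-0.029), *mpp1* (-0.064) and *slc2a1a* (-0.14) did not pass. Neither did the less abundant *rhag* (-0.29) and *ank1* (0.25), named after their values were seen. Without wildtype replicate B, and likewise without mutant replicate C, *sptb* and *ca2* lost their calls and the list had 2 genes higher. Without any one of wildtype replicate A, wildtype replicate B and mutant replicate C the *tmod1* call was lost, and without wildtype replicate C that of *cahz* was (edgeR adjusted p = 0.051).

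The erythroid regulators had 7 of 22 tested genes higher and 1 lower, with a median of 0.16. *tal1*, a partner of Gata1 that is needed to form blood, had 36.8, 35.02 and 38.8 CPM in wildtype and 47.1, 53.1 and 57.7 CPM in the mutants. *klf4b*, the Krüppel-like factor now named *klf17* and expressed in primitive erythroid cells, had 49.1, 50.5 and 47.0 CPM in wildtype and 62.1, 69.6 and 79.4 CPM in the mutants. Neither gene overlapped between the genotypes, and mutant replicate D was the highest library for both, as it was for *gata1a*. That order was not particular to these genes, since *gata2a*, *ntla* and *tbx16* of the marker lists below showed it too. Its share over all tested genes was not counted. Their log2 fold changes were 0.51 (SE 0.073) and 0.53 (SE 0.077), with edgeR adjusted p = 0.00035 and 0.00043.

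*gfi1aa*, a repressor that acts downstream of Gata1 in zebrafish primitive red cells, had 5.88, 7.31 and 6.99 CPM in wildtype and 9.78, 11.6 and 14.7 CPM in the mutants. The erythropoietin receptor gene *epor* had 1.02, 0.854 and 1.11 CPM in wildtype and 1.70, 2.02 and 1.63 CPM in the mutants. Both were higher in every mutant library, *gfi1aa* by 0.83 (edgeR adjusted p = 0.0011) and *epor* by 0.84 (edgeR adjusted p = 0.0086) on the log2 scale. The progenitor factor *myb* (0.62), the Tal1 partner *lmo2* (0.36) and *klf3* (0.43) also rose. The chromatin protein gene *hmgb3a*, the most abundant of the list, fell by 0.46 (edgeR adjusted p = 1.16e-05). Its level was 583, 561 and 568 CPM in wildtype and 412, 424 and 412 CPM in the mutants. The summed level of the regulators was 1266 to 1277 CPM in wildtype and 1174 to 1234 CPM in the mutants, lower without overlap. In CPM, *hmgb3a* alone fell by more than this sum did, so the sum does not describe the list as a group. *ldb1a* (0.055), *klf6a* (0.11) and *trim33* (0.060) did not pass. Neither did the less abundant *nfe2* (-0.0765) and *gfi1b* (0.43), named after their values were seen. Without mutant replicate A 10 genes of this list were called higher, and without wildtype replicate C 8 were called higher and 2 lower.

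Of the other globins, *hbbe2*, the neighbour of *hbbe3*, had 3.97, 3.02 and 3.53 CPM in wildtype and 3.72, 4.36 and 4.11 CPM in the mutants. The groups overlapped, and its log2 fold change of 0.21 did not pass (edgeR adjusted p = 0.26). The row named *hbz*, an older name shared by *hbae4* and *hbae5*, was below 1 CPM in every library (log2 fold change 0.53, edgeR adjusted p = 0.36). *hbaa1* did not pass the filter on low counts.

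**Figure D4:**
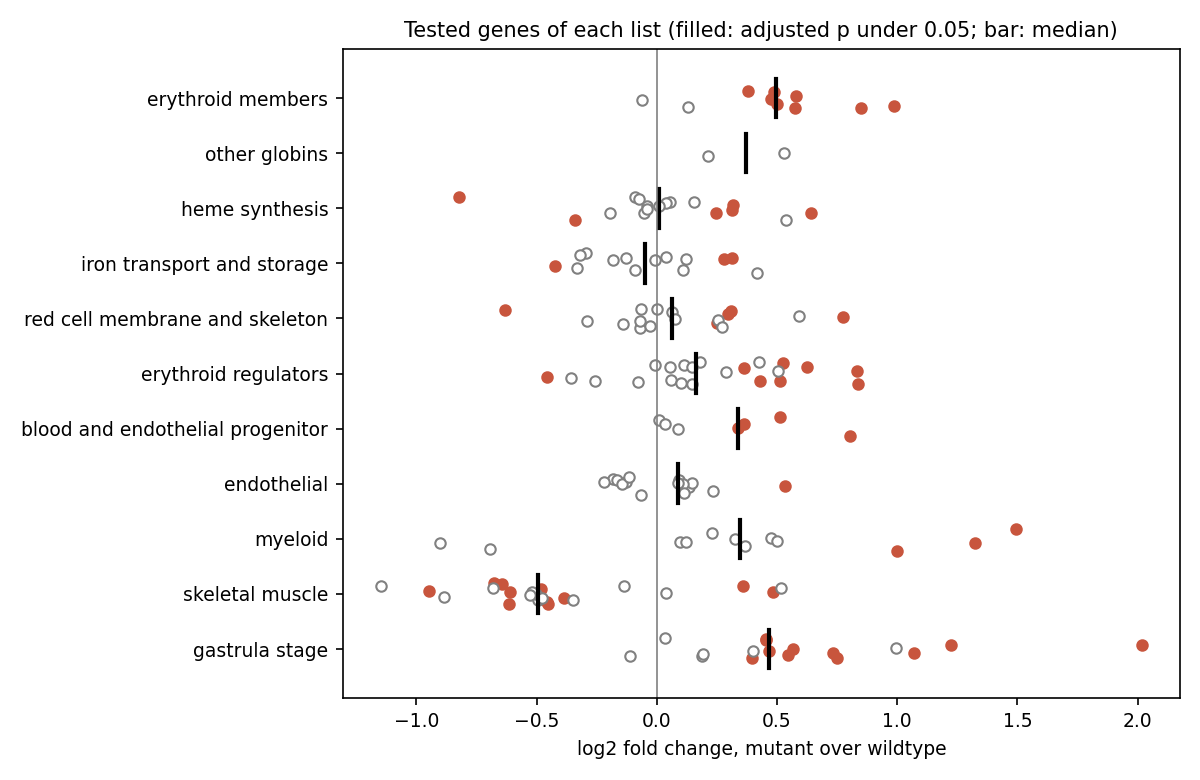
Log2 fold change, mutant over wildtype, of every tested gene of the primitive erythroid members and of each list, with filled points for an adjusted p under 0.05 and a bar at the list's median. The bar of the members stands at 0.50, those of heme synthesis, iron and membrane genes near 0, and that of the skeletal muscle list at -0.49. Other lists also lie to the right of 0, with bars at 0.47 for the gastrula stage list and 0.37 for the other globins. Those of the myeloid, progenitor, regulator and endothelial lists stand at 0.35, 0.34, 0.16 and 0.088.

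Marker genes of other cell types, and genes of a list named for the gastrula stage, were also compared between these libraries. Of all tested genes, 17.4% were called higher and 17.1% lower. Of 7 tested genes of blood and endothelial progenitors 4 rose and 0 fell, with a median of 0.34. These were *tal1* and *lmo2*, already counted among the regulators, *gata2a* (0.80) and *drl* (0.34, named after its values were seen). *etv2*, the most abundant gene of the list, did not pass (0.090). Their summed level was 198 to 207 CPM in wildtype and 238 to 294 CPM in the mutants.

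The endothelial list, from cells that share an origin with blood, had 1 of 15 genes higher, *aplnrb* (0.53), and 0 lower. Its most abundant gene, *aplnra*, did not pass (-0.12), and the summed levels overlapped, at 197 to 212 CPM in wildtype and 201 to 229 CPM in the mutants. With a median of 0.35, the myeloid list had 3 of 12 tested genes higher and 0 lower. Those were *lcp1*, *irf8* and *spi1b*, with log2 fold changes of 1.49, 1.32 and 1.00, while *cebpb* (0.23) and *cebpa* (0.37) did not pass. The uncalled genes of this list went both ways. They ran from *lect2l* (-0.90) and *npsn* (-0.69) over *mpx* (0.095) and *lyz* (0.12) to *coro1a* (0.50), named after their values were seen. Summed, the myeloid list stood at 42.3 to 49.0 CPM in wildtype and 59.1 to 79.1 CPM in the mutants. Without mutant replicate A 6 myeloid genes were called higher, and without mutant replicate D 1 was called lower.

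Skeletal muscle genes differed in the other direction, with 9 of 23 tested genes lower, 2 higher (*myf5* and *tnnt3b*, named after their values were seen) and a median of -0.49. Their summed level was 5066 to 5524 CPM in wildtype, 4289 and 4306 CPM in mutant replicates A and C, and 2509 CPM in mutant replicate D. *smyhc1* fell by 0.62 on the log2 scale, and *actc1b* had a log2 fold change of -0.48 that did not pass. Without mutant replicate D, 14 muscle genes were lower and 4 higher. Without wildtype replicate A, 3 were lower, without wildtype replicate C, 4 were, and DESeq2 called 3 lower. Only 1 was higher without wildtype replicate A, wildtype replicate C, mutant replicate A or mutant replicate C. The list named for the gastrula stage had 11 of 17 tested genes higher and 0 lower, with a median of 0.47. Its summed level was 240 to 272 CPM in wildtype and 326 to 431 CPM in the mutants. Among the genes called higher were *ntla* (0.57), *tbx16* (0.47), *mespab* (1.22) and *sebox* (1.07). *gsc* was also called, with 2, 4 and 6 counts in wildtype and 18, 12 and 20 counts in the mutants. In wildtype at 18hpf, genes of this list ranged from low, as for *sebox* at 0.40, 0.32 and 0.26 CPM, to well expressed. *ntla* stood at 81.1, 90.7 and 91.8 CPM there, and *tbx16* at 44.6, 50.7 and 50.6 CPM. No row of these lists was at 0 in any library except *pvalb1* of the muscle list, and the members' defining genes were detected in all libraries. Whether the stage or the makeup of the pools took part in the change of the erythroid genes was not tested.

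The genes whose levels followed the members most closely over the 6 libraries were *uhmk1*, *ak7a*, *klhl24b*, *mink1* and *RFFL*. Among 12133 genes of at least 5 CPM their Pearson r with the mean profile of the members ran from 0.986 to 0.996, a description over 6 libraries that fall into the same 2 genotypes for every gene. They were higher in the mutants by 1.16-fold to 1.24-fold, less than the 8 called members, and none belongs to the lists used here.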

How the data were processed

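Per the study's methods and the processing notes of the labels, the authors aligned strand-specific reads to the DanRer7 transcriptome with RSEM 1.2.28 after a FastQC check, filtered out ribosomal RNA, and deposited the resulting expected counts of each gene, which are estimates without normalization. The table holds 23150 genes with a lowest row sum of 11 counts and 0 per-library columns besides the 6 used. A second deposited table and its fold changes and p-values are the authors' own DESeq2 comparison and were not used. Column names carry the genotype and a letter, so a column was assigned to its genotype only. The labels call the libraries replicates without saying whether the pools were separate, so p-values measure the spread between these libraries, which may be technical.

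Expected counts were rounded to whole numbers, filtered with filterByExpr (20021 genes left), scaled by TMM and compared with edgeR 4.0.16 (glmQLFit and glmQLFTest) in R 4.3.3, with all 6 libraries, no covariate and Benjamini-Hochberg adjustment over all tested genes. Calls needed an adjusted p below 0.05, and those that also exceeded a 2-fold change were counted separately. Summed globin rows replaced the rows they were summed from, and the altered tables were fitted separately with the same filter, scaling and test. The step was tested on simulated data. DESeq2 1.42.0, limma-voom (limma 3.58.1), other scalings and filters, a threshold of 0.01 and the omission of each library were the alternatives, and summing the *hbbe1* rows before counting calls and a block on the column letter were added after the data were seen.

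The members and the gene lists were chosen with earlier results of these data known. Genes named outside the rules that follow are marked as named after their values were seen. Named genes are all members, the called genes of the 5 erythroid lists with up to 3 uncalled genes each by highest mean CPM, from other lists the 2 genes of highest mean CPM and those called with a fold change over 2, the 5 genes with the profile most like that of the members, and *dusp6* and *dusp2*. List genes were matched by symbol or by a synonym that belongs to 1 gene of the GRCz12tu annotation, whose coordinates served only to order the globin genes.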

Additional observations from a re-analysis of the deposited data

How the results depend on the processing

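The number of members called ranged from 6 to 8 over the 16 alternatives, with 6 at a threshold of 0.01, 6 to 8 with each library left out in turn, and 8 of 9 with the *hbbe1* rows summed. Only *hbae1* and *epb41b* lost their calls when a library was left out. The count of members called with a fold change over 2 was 0, and it was 1 (*slc4a1a*) with limma-voom and between 0 and 1 when single libraries were omitted. The median log2 fold change of the members stayed between 0.40 and 0.55. *gata1a*, *slc4a1a*, *hbae3*, *alas2*, *hbbe1_1* and *hbbe3*, and both globin sums, kept their direction and their call in each of their 14 alternatives. *hbbe1_2*, which was not called, turned to 0.0084 without mutant replicate A and to 0.059 without mutant replicate D (range -0.29 to 0.059 over the omitted libraries), and the cause was not tested. The median over all genes moved to -0.0097 at most under other scalings. The column letters match no replicate number of the labels, so a block on those numbers could not be fitted. A replicate block on the column letter, added after the data were seen and informed by the letters A and C alone, called 8 members and 0 with a fold change over 2, with a median of 0.45, and gave 0.030 for *hbbe1_2*. Same-letter libraries deviated from their group means with a correlation of -0.014 for A and 0.048 for C over all tested genes, so the letters were not taken to pair the libraries. Depth limits *epb41b* and *slc4a1a* most, with the fewest counts among the members, and the near-identical copies of *hbae1* and *hbbe1* limit their single rows.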
